A study of Mus musculus with 9 samples.

Results

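The genes described here were higher in cells that did not carry the neural crest label, in the face and in the trunk alike. They are 65 genes, measured by 67 of the 23473 probes on the array, and they include the beta globins of red blood cells, contractile proteins of skeletal muscle, receptors and chemokines of macrophages and mast cells, and transcription factors and membrane proteins of the brain and spinal cord. Members were chosen among the 306 named probes of the list of altered probes that accompanies the study. A probe was a member where its lowest log2 value over the 4 EGFP- arrays exceeded its highest over the 5 EGFP+ arrays by at least 1, a distance called the gap here. Of all 23473 probes, 220 (0.937%) had such a gap and 2 (0.00852%) had it in the opposite direction. The 220 comprise the 67 members, 4 named probes left out by name (Hba-x, Actc1, C1qb and Lhx2), 11 unnamed probes of the study's list and 138 probes outside it that are unnamed here.

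The neural crest is a migratory population that leaves the edge of the closing neural tube and gives rise to peripheral neurons, glia and pigment cells and, in the head, to much of the bone, cartilage and connective tissue. Red cells, macrophages, skeletal muscle and the central nervous system arise from other sources, namely mesoderm, its blood-forming derivatives and the neural tube itself.

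Embryos at E12.5 carried P0-Cre, a recombinase driven by the promoter of myelin protein zero, and the CAG-CAT-EGFP reporter, which is switched on by recombination, on a C57/BL6J background crossed to ICR. All 4 groups came from such embryos and were separated by region and by EGFP in a cell sorter: the face gave 2 arrays of EGFP+ cells, named Cp, and 2 of EGFP- cells, named Cn, and the trunk gave 3 arrays of EGFP+ cells, named Tp, and 2 of EGFP- cells, named Tn. The heart fields were removed from the trunk. The label marks cells in which P0-Cre was active, so each fraction is a mixture of cell types. In such bulk samples, fewer cells of a type and less RNA per cell cannot be told apart.

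Values are log2 of the deposited processed intensities, whose median was 25 on every array, so a difference of 1 is a 2-fold change. The median spot was 1.81 to 3.21 times the blank spots, and 80.0% to 90.2% of probes had a spot reading above the blank limit (mean plus 2 SD of the blank spots). On the scale of the processed values this limit is a log2 value of 0.57 to 1.37 depending on the array, and a member is called above or below it by its processed value. Tp replicate 3 had the lowest of these ratios and shares, and was the only array of its scan. A scan here means the arrays read on the same day. Counts of calls and list medians that rest on it are given without it too. Replicate arrays differed by a root mean square of 0.31 to 0.58 over the members and of 0.48 to 0.63 over all probes.

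Levels of 19 named genes, grouped here as markers of the neural crest and its derivatives, were compared between the EGFP classes. Among them are Penk1, Cart1, Omd, Lhx8 and Barx1. The paper itself reports these genes as higher in Cp than in Tp, and Penk1 as not linked to the crest before. All markers in this paragraph are named only through the study's list, which was selected on these data for a change among the groups. The values therefore describe the fractions and cannot serve as an independent check of the label. Of the 19 genes, 15 had a higher mean in EGFP+ than in EGFP- arrays. Their summed processed intensity was 19184 to 21539 in Tp, 4163 to 5218 in Cp, 4246 to 4331 in Cn and 3265 to 3784 in Tn. Gene by gene, 13 of the 19 had a higher mean in Cp than in Cn and 15 a higher mean in Tp than in Tn. The sums of Cp and Cn overlapped, and Fabp7 and Gap43 made up 73.8% of the Cn sum. Both also had the highest means of the 19 in Tp, at log2 values of 13.64 and 11.53, so the Tp sum rests largely on them too. All 19 genes were above the blank limit in at least 1 array of both EGFP- groups. Epithelial markers (4 named) had a higher mean in EGFP- arrays in all 4 cases, with summed intensities of 726 to 784 in Cn, 445 to 484 in Tn, 168 to 185 in Cp and 393 to 497 in Tp. Of 6 named endothelial markers, 5 had a higher mean in EGFP- arrays, with summed intensities of 441 to 669 in Cn, 493 to 667 in Tn, 222 to 246 in Cp and 121 to 163 in Tp. The endothelial list shares Tal1 and Thsd1 with the members, so the rule fixed the direction of both. Thsd1 and Ramp2 made up 81.8% of the Cn sum of this list. The 4 non-members of the endothelial list, Sox18, Ramp2, Fli1 and Lama4, were all higher in Cp than in Cn. Of them 1, Lama4, was higher in Tp than in Tn. The part of these cells in the results below was not tested.

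The difference between EGFP- and EGFP+ cells chose the members and is given as a description. The median member was 11.2-fold higher in Cn than in Cp and 11.3-fold higher in Tn than in Tp (10.4-fold without Tp replicate 3). All 67 members were above the blank limit on the 4 EGFP- arrays, 53 were above it on all 9 arrays, and 6 (Smpx, Cxcl4, Rac2, Was, Arpp21 and 1110028A07Rik) were above it on neither Cp array. Smpx was above it on no Tp array either. Just inside the threshold were Myod1 (gap 1.02), Gatm (1.05), Arpp21 (1.07), Tnnc1 (1.16), 1110002H13Rik (1.16) and Ctla2b (1.17). Just outside it were Gpr98 (0.95), Rpp25 (0.91), Lbxcor1 (0.83), Igfbpl1 (0.81) and Chrna1 (0.81).

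**Figure D1:**
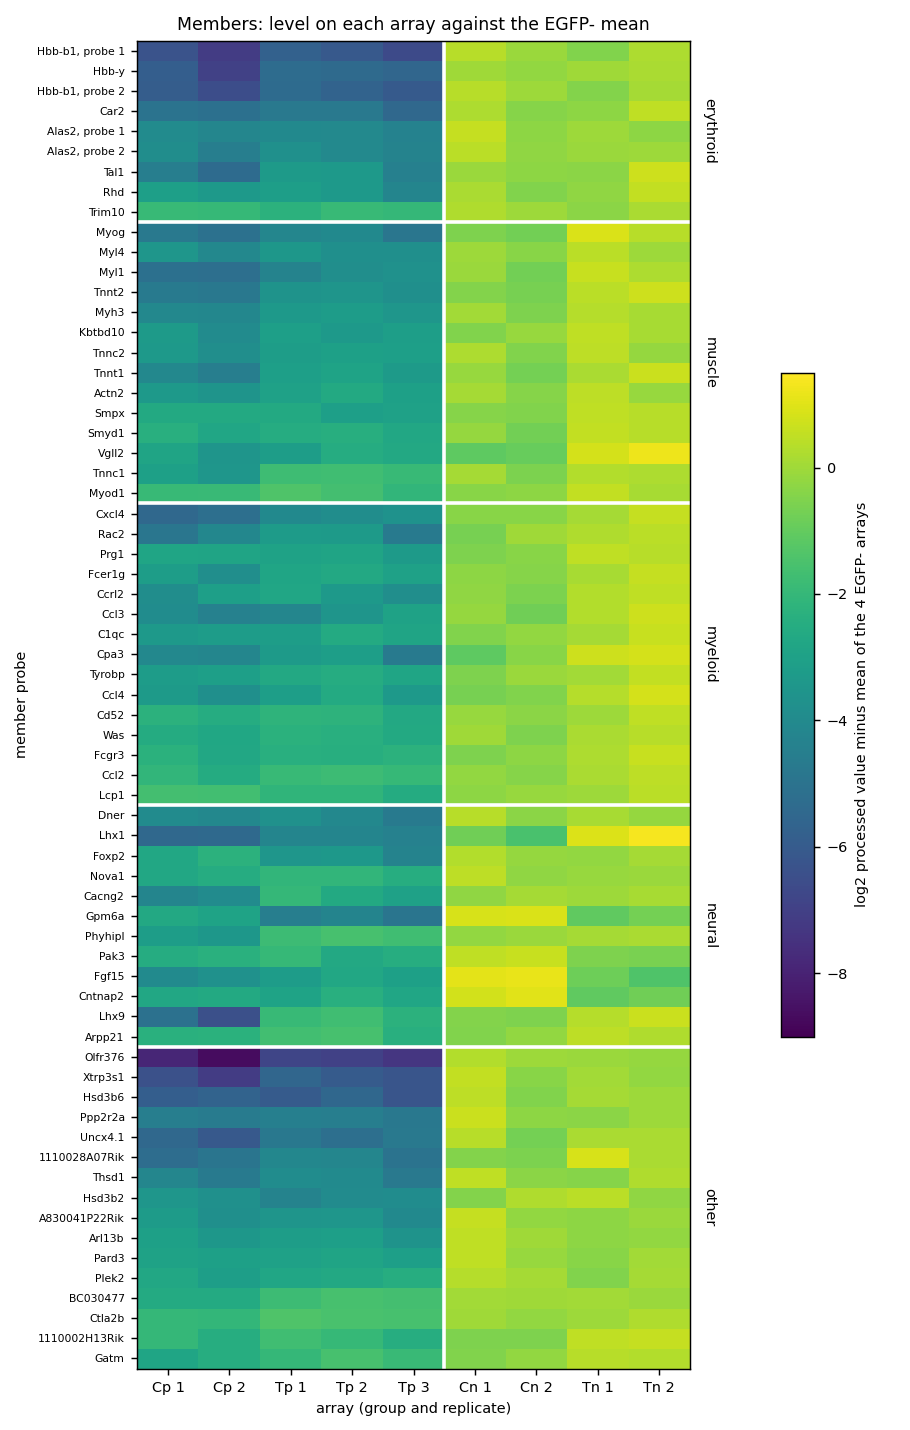
Colour gives the log2 processed value of 66 of the 67 member probes (rows, by list and falling gap) on each of the 9 arrays (columns), minus the probe's mean over the 4 EGFP- arrays. All EGFP+ columns are darker than all EGFP- columns, as the rule requires, and Olfr376 and the globins are among the darkest rows.

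Members were grouped by known function into an erythroid list (8 genes, 10 probes), a skeletal muscle list (14 genes), a myeloid list (15 genes), a neural list (12 genes) and 16 other genes. Promoters are shown for members with the largest gaps in the 3 lists of blood and muscle genes, because each of these lists is known to depend on a family of transcription factors with a short recognition sequence: GATA factors in erythroid cells, MyoD-type factors that bind E-boxes in muscle, and ETS factors in myeloid cells. The RefSeq windows hold 250 bases before and 50 after the start of transcription in GRCm38.p6. Capitals mark matches on either strand to AGATAA for GATA factors, to the E-box CAGCTG, which is its own reverse complement, and to GAGGAA for ETS factors. No 2 matches overlap in the windows shown.
Hbb-y (chr7:103853158-103853457, minus strand): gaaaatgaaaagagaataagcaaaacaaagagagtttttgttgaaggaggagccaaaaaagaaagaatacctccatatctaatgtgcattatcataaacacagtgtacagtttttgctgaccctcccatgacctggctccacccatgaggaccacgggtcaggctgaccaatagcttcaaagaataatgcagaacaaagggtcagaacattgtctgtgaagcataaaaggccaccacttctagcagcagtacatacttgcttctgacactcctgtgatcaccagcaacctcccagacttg
Alas2 (chrX:150547167-150547466, plus strand): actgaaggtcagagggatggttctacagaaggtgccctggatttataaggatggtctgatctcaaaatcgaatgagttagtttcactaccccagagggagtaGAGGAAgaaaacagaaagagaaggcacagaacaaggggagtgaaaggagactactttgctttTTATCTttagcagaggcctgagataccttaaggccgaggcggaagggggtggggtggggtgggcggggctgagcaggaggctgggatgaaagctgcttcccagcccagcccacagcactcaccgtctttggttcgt
Myog (chr1:134289754-134290053, plus strand): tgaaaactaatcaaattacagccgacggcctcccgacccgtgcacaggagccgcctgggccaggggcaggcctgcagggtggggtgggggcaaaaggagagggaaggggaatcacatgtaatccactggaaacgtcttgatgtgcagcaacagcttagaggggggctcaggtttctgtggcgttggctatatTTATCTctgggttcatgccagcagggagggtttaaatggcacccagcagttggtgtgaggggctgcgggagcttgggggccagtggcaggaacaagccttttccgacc
Cxcl4 (chr5:90772185-90772484, plus strand): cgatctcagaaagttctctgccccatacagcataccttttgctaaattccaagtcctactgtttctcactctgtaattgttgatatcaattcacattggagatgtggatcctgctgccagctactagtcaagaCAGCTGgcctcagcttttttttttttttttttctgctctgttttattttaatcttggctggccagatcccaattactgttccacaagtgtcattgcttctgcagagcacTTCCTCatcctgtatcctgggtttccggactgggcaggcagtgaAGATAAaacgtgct
Prg1 (chr10:62527396-62527695, minus strand): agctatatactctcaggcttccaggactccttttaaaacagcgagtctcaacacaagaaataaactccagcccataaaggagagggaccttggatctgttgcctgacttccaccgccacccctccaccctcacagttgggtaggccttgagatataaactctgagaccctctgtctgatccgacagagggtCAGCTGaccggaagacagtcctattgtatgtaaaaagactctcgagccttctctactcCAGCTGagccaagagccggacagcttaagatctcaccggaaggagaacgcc

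Among the 50 member genes with a window, each represented by its first listed start, AGATAA occurred in 4 of 5 erythroid promoters (Alas2, Rhd, Tal1 and Trim10), against 11.4% of 27025 promoters of the same length. It occurred in 3 of 13 muscle promoters (Myog, Smpx and Tnnt2), 2 of 10 myeloid, 1 of 10 neural and 2 of 12 other promoters. CAGCTG was found in 5 of 10 myeloid promoters (Ccrl2, Cpa3, Cxcl4, Fcer1g and Prg1), in 3 of 13 muscle, 1 of 5 erythroid, 3 of 10 neural and 2 of 12 other promoters, against 16.1% of all. GAGGAA was found in 3 of 5 erythroid, 5 of 10 myeloid, 5 of 13 muscle, 2 of 10 neural and 4 of 12 other promoters, against 28.3% of all. These are matches of letters in a short window. The window of Hbb-y holds none of the 3 motifs.

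The erythroid probes had the highest median difference of the 5 lists. Over the 10 probes the median was 29.0-fold higher in Cn than in Cp and 22.7-fold higher in Tn than in Tp (20.7-fold without Tp replicate 3). The level in EGFP+ cells was thus 3.45% and 4.40% of that in their EGFP- counterparts at the median, or 4.83% in the trunk without that array. It was highest for Trim10, at 24.4% and 25.3%. Hbb-y, the embryonic beta-like globin of primitive red cells, read 15.22 and 15.02 in Cn, 15.21 and 15.35 in Tn, 9.36 and 8.25 in Cp and 9.89, 9.84 and 9.68 in Tp. Its spot was saturated on Tn replicate 2, where the value is a lower bound. The first Hbb-b1 probe, for the adult beta globin, read 15.04 and 14.57 in Cn, 14.18 and 14.87 in Tn, 8.33 and 7.52 in Cp and 8.93, 8.60 and 8.02 in Tp. The second Hbb-b1 probe read 15.28 and 14.90 in Cn, 14.47 and 15.02 in Tn, 9.02 and 8.39 in Cp and 9.59, 9.25 and 8.88 in Tp. Every EGFP- array was far above every EGFP+ array for each globin, and the probes of these closely related genes may share signal.

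Car2, carbonic anhydrase of red cells, read 9.12 and 8.48 in Cn, 8.60 and 9.37 in Tn, 3.90 and 3.77 in Cp and 4.12, 4.15 and 3.43 in Tp. It was spread over less than 1 unit among the EGFP+ arrays, and Tn replicate 2 was its highest array. Alas2, the first enzyme of haem synthesis in red cells, was 18.6-fold and 19-fold higher in Cn than in Cp by its 2 probes, and 15.9-fold and 15.5-fold higher in Tn than in Tp. Tal1, a transcription factor of early blood cells, Rhd, a Rh blood group protein, and Trim10, which acts in red cell differentiation, had smaller gaps of 2.93, 2.59 and 1.59. Of the 28 genes of the erythroid list, 10 had named probes, and the non-members were Hba-x, left out by name with a gap of 5.63, and the urea transporter Slc14a1, with a gap of -2.65.

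The muscle genes were 10.4-fold higher in Cn than in Cp and 11.3-fold higher in Tn than in Tp at the median (10.9-fold without Tp replicate 3). Myog, the transcription factor that drives terminal muscle differentiation, read 6.92 and 6.72 in Cn, 8.36 and 7.80 in Tn, 2.68 and 2.39 in Cp and 3.28, 3.43 and 2.59 in Tp. Its Tn arrays were above its Cn arrays. The myosin light chain Myl4 read 6.30 and 5.95 in Cn, 6.74 and 6.28 in Tn, 2.84 and 2.24 in Cp and 2.86, 2.54 and 2.55 in Tp, with overlapping Cn and Tn arrays. Myl1, a light chain of fast muscle, read 7.99 and 7.33 in Cn, 8.71 and 8.28 in Tn, 2.95 and 2.91 in Cp and 3.78, 4.28 and 4.39 in Tp. Tnnt2, the troponin T of heart and of embryonic skeletal muscle, read 6.08 and 5.90 in Cn, 6.97 and 7.25 in Tn, 1.89 and 1.75 in Cp and 2.95, 3.02 and 2.77 in Tp. For both Myl1 and Tnnt2 the order of the 4 groups was Tn, Cn, Tp and Cp without overlap between neighbours.

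The remaining muscle members were the sarcomere genes Myh3, Tnnc2, Tnnt1, Tnnc1 and Actn2, the muscle proteins Kbtbd10 (Klhl41 in RefSeq) and Smpx, the histone methyltransferase Smyd1, the TEAD cofactor Vgll2 and the myogenic factor Myod1, with gaps of 1.02 to 2.66. Myod1 had the smallest gap of all members, with 4.52 and 4.53 in Cp. Smpx was below the blank limit on all 5 EGFP+ arrays, so Cn was at least 3.45-fold higher than Cp and Tn at least 6.60-fold higher than Tp. Such bounds set the mean of the brighter group against, per array, the higher of the probe's own value and the lowest processed value above the blank limit. Of the 35 genes of the muscle list, 17 had named probes. The non-members were Actc1, left out by name with a gap of 3.56, the acetylcholine receptor subunit Chrna1 (0.81) and Myoz1 (-2.34).

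The myeloid genes were 7.57-fold higher in Cn than in Cp and 9.24-fold higher in Tn than in Tp at the median (9.20-fold without Tp replicate 3). Cxcl4 (Pf4 in RefSeq), platelet factor 4 of megakaryocytes, read 5.28 and 5.28 in Cn, 5.73 and 6.23 in Tn, 0.16 and 0.48 in Cp and 1.61, 1.79 and 1.96 in Tp. It was above the blank limit on all 3 Tp arrays and on neither Cp array, and Cn was at least 18.1-fold above Cp. Rac2, a GTPase of blood cells, read 4.39 and 5.01 in Cn, 5.27 and 5.42 in Tn, 0.14 and 0.89 in Cp and 1.78, 1.74 and 0.32 in Tp, where the Tp replicate 3 value stands for an empty cell. Neither Cp array was above the blank limit, and Cn was at least 12.1-fold above Cp. Prg1 (Srgn in RefSeq), the proteoglycan of secretory granules, read 5.40 and 5.59 in Cn, 6.45 and 6.31 in Tn, 3.10 and 3.07 in Cp and 3.0, 3.07 and 2.65 in Tp. Fcer1g, the shared signalling chain of Fc receptors, read 6.72 and 6.64 in Cn, 7.16 and 7.59 in Tn, 3.88 and 3.21 in Cp and 4.2, 4.38 and 4.05 in Tp. In all 4 the Tn arrays were above the Cn arrays.

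The other myeloid members were the chemokines Ccl2, Ccl3 and Ccl4, the chemokine receptor-like Ccrl2, the complement gene C1qc, the signalling adaptor Tyrobp, the Fc receptor Fcgr3, the surface glycoprotein Cd52, the actin regulators Was and Lcp1, and Cpa3, a carboxypeptidase of mast cells. Their gaps ran from 1.38 to 2.24. Cpa3 was 10.6-fold higher in Cn than in Cp and 22-fold higher in Tn than in Tp, and these ratios did not pass the test of a difference between regions (interaction -1.06 ± 0.63 SE, adjusted p = 0.45). Was was above the blank limit on neither Cp array, and Cn was at least 4.51-fold higher. Of the 34 genes of the myeloid list, 17 had named probes, and the non-members were C1qb, left out by name (gap 3.46), and Cd83 (0.29).

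The neural genes had a median of 12.4-fold in the craniofacial pair and of 5.09-fold in the trunk pair (4.49-fold without Tp replicate 3). Dner, a Notch-binding membrane protein of neurons, read 7.44 and 6.75 in Cn, 7.20 and 6.94 in Tn, 3.17 and 3.0 in Cp and 3.38, 2.98 and 2.38 in Tp. Lhx1, a LIM homeodomain factor of spinal and brain neurons, read 6.27 and 5.53 in Cn, 7.98 and 8.40 in Tn, 1.60 and 1.65 in Cp and 2.81, 2.82 and 2.66 in Tp. Foxp2, a forkhead factor of brain neurons, read 8.04 and 7.59 in Cn, 7.54 and 7.83 in Tn, 5.07 and 5.51 in Cp and 4.27, 4.33 and 3.44 in Tp. Dner and Foxp2 overlapped between Cn and Tn, whereas the Lhx1 arrays of Tn lay above those of Cn. Nova1, a neuronal splicing factor, read 8.06 and 7.38 in Cn, 7.51 and 7.56 in Tn, 4.91 and 5.14 in Cp and 5.52, 5.55 and 5.18 in Tp. Arpp21, a phosphoprotein of the striatum, had the smallest gap of this list (1.07), and Cn was at least 3.76-fold above Cp. Of the 42 genes of the neural list, 36 had named probes and 24 of these were not members. Many of those were high in 1 region only, such as Atoh7, a factor of the retina, with mean log2 values of 7.95 in Cn and 2.62 in Tn. Lbxcor1, a corepressor of the dorsal spinal cord, had 3.68 in Cn and 8.28 in Tn.

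The 16 other members held the largest gap of all. Olfr376, annotated as an olfactory receptor, read 12.78 and 12.49 in Cn, 12.43 and 12.35 in Tn, 4.64 and 3.88 in Cp and 5.70, 5.55 and 5.16 in Tp, which is 332-fold between Cn and Cp and 121-fold between Tn and Tp. Xtrp3s1 (Slc6a20a in RefSeq), an amino acid transporter, read 10.85 and 9.96 in Cn, 10.37 and 10.15 in Tn, 3.95 and 3.19 in Cp and 4.78, 4.37 and 4.09 in Tp. Hsd3b6, a hydroxysteroid dehydrogenase, read 8.28 and 7.36 in Cn, 7.94 and 7.79 in Tn, 1.97 and 2.18 in Cp and 1.85, 2.34 and 1.62 in Tp. Ppp2r2a, a regulatory subunit of protein phosphatase 2A, read 11.31 and 10.36 in Cn, 10.30 and 10.60 in Tn, 6.15 and 6.0 in Cp and 6.16, 6.11 and 5.84 in Tp. All 4 stood more than 4 units apart between EGFP- and EGFP+ arrays, and Cn replicate 1 was the highest array for each.

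The rest of this group had gaps of 1.05 to 4.07. They were the homeobox gene Uncx4.1 (Uncx in RefSeq), which is known from somites, Thsd1, the related dehydrogenase Hsd3b2, whose probe may share signal with that of Hsd3b6, A830041P22Rik (Tmem91 in RefSeq), the ciliary GTPase Arl13b, the polarity gene Pard3, Plek2, Ctla2b, BC030477 and Gatm, an enzyme of creatine synthesis. Another pair had RefSeq names with a role in muscle: 1110002H13Rik is Mymk, the membrane protein that fuses myoblasts, and 1110028A07Rik is Fitm1, a lipid droplet protein of muscle. For 1110028A07Rik, Cn was at least 20.7-fold above Cp.

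The arrays of a single EGFP- group differed by list. All 10 erythroid probes were higher on Cn replicate 1 than on Cn replicate 2 (median difference 0.52), and 9 of 10 were lower on Tn replicate 1 than on Tn replicate 2 (median -0.62). Muscle members were higher on replicate 1 in 11 of 14 cases in Cn (median 0.42) and in 11 of 14 in Tn (0.28). Myeloid members were lower on replicate 1 of Tn in 14 of 15 cases (-0.42) and split 7 to 8 in Cn (-0.15). Neural members were higher on replicate 1 in 5 of 12 cases in Cn (median -0.06) and in 4 of 12 in Tn (-0.12). Over all 21965 probes tested, 56.6% were higher on replicate 1 in Cn and 37.8% in Tn, with medians of 0.07 and -0.14. Among the other members, 8 were higher on Cn replicate 1 by at least 0.5, namely Xtrp3s1, Hsd3b6, Ppp2r2a, Uncx4.1, Thsd1, A830041P22Rik, Arl13b and Pard3. These are differences between 1 array and 1 array, with no test. The 2 arrays of each EGFP- group came from different scans, and the part of the scan was not tested.

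**Figure D2:**
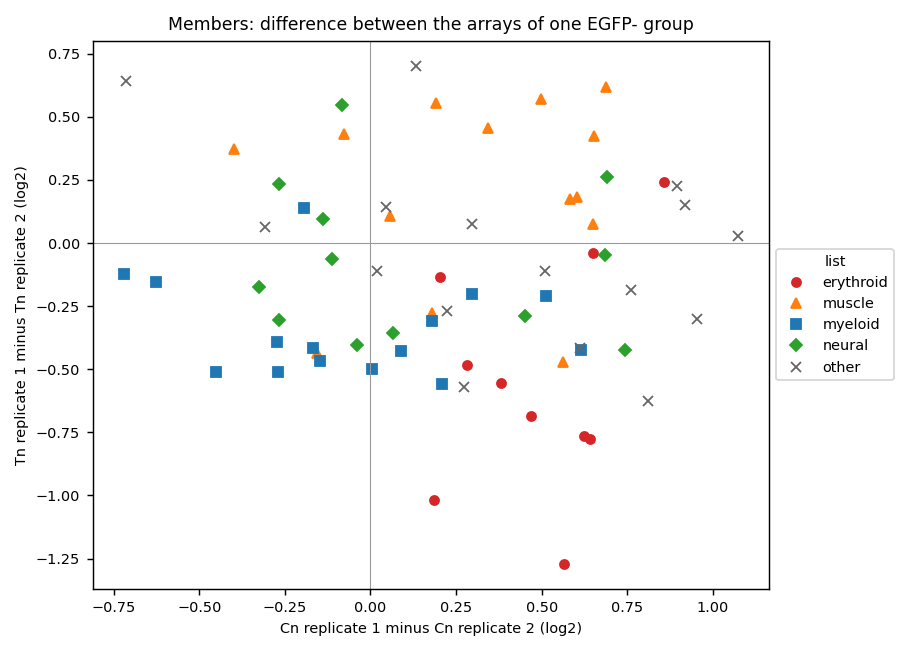
Each point is a member probe, placed by its log2 difference between the 2 Cn arrays (x axis) and between the 2 Tn arrays (y axis), with a symbol for each list. Erythroid members lie to the right and mostly low, myeloid members mostly low, and muscle members mostly to the upper right.

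Regional differences within one EGFP class were not used by the rule and were tested with limma over all 21965 probes kept. Replicate 1 of all groups shared a scan day, but no later scan day held arrays of both regions. Region and scan cannot be told apart in those later scans. The study's list was itself selected on 8 of these arrays for a change among the 4 groups, so the members are not an unselected sample. Between the EGFP- groups, 5 of 67 members passed at an adjusted p of 0.05, 3 higher and 2 lower in Cn, against 1.37% of all probes (0.555% higher and 0.81% lower). Without Tp replicate 3 there were 6 such members, including the same 5, beside 276 of all probes. Of the 5, 4 were neural genes and the other was Vgll2.

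Fgf15, a fibroblast growth factor of the developing brain, read 7.49 and 7.57 in Cn, 5.60 and 5.05 in Tn, 2.45 and 2.74 in Cp and 3.24, 3.71 and 3.39 in Tp. It was higher in Cn than in Tn (log2 difference 2.20 ± 0.29 SE, 4.61-fold, adjusted p = 0.00206). Cntnap2, an adhesion protein of axons, read 7.33 and 7.59 in Cn, 5.49 and 5.79 in Tn, 3.83 and 3.93 in Cp and 3.65, 4.18 and 3.75 in Tp, and was higher in Cn (log2 difference 1.82 ± 0.28 SE, 3.53-fold, adjusted p = 0.00626). Gpm6a, a neuronal membrane glycoprotein, read 9.92 and 9.96 in Cn, 7.97 and 8.37 in Tn, 6.38 and 6.14 in Cp and 4.56, 4.80 and 4.14 in Tp, and was also higher in Cn (log2 difference 1.76 ± 0.29 SE, 3.4-fold, adjusted p = 0.00994). None of these 3 genes overlapped between Cn and Tn. The adjusted p of Cntnap2 was 0.0601 without Cn replicate 2 and 0.0555 without Tn replicate 1, and that of Gpm6a was 0.081 without Cn replicate 1, 0.0661 without Cn replicate 2 and 0.0849 without Tn replicate 1.

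In the opposite direction, Lhx1 was lower in Cn than in Tn (log2 difference -2.29 ± 0.30 SE, 4.88-fold, adjusted p = 0.00206), with its arrays as given above. Vgll2 read 6.32 and 6.48 in Cn, 8.24 and 8.68 in Tn, 4.56 and 3.90 in Cp and 4.27, 4.92 and 4.78 in Tp, and was lower in Cn (log2 difference -2.06 ± 0.32 SE, 4.16-fold, adjusted p = 0.00759). Its adjusted p was 0.0733 without Cn replicate 1 and 0.0689 without Tn replicate 2. Pak3, a kinase of neurons, was the next neural gene by size, at 1.13 ± 0.28 SE and an adjusted p of 0.0941. With the ring around each spot as background, Fgf15 alone among the members passed (0.196% of all probes did), at 1.43 (adjusted p = 0.0337), and Lhx1, Vgll2, Cntnap2 and Gpm6a had adjusted p values of 0.232, 0.369, 0.222 and 0.0621. With the scan as a block, Gpm6a and Cntnap2 passed and Fgf15, Lhx1 and Vgll2 did not, at 0.0662, 0.0585 and 0.0795.

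**Figure D3:**
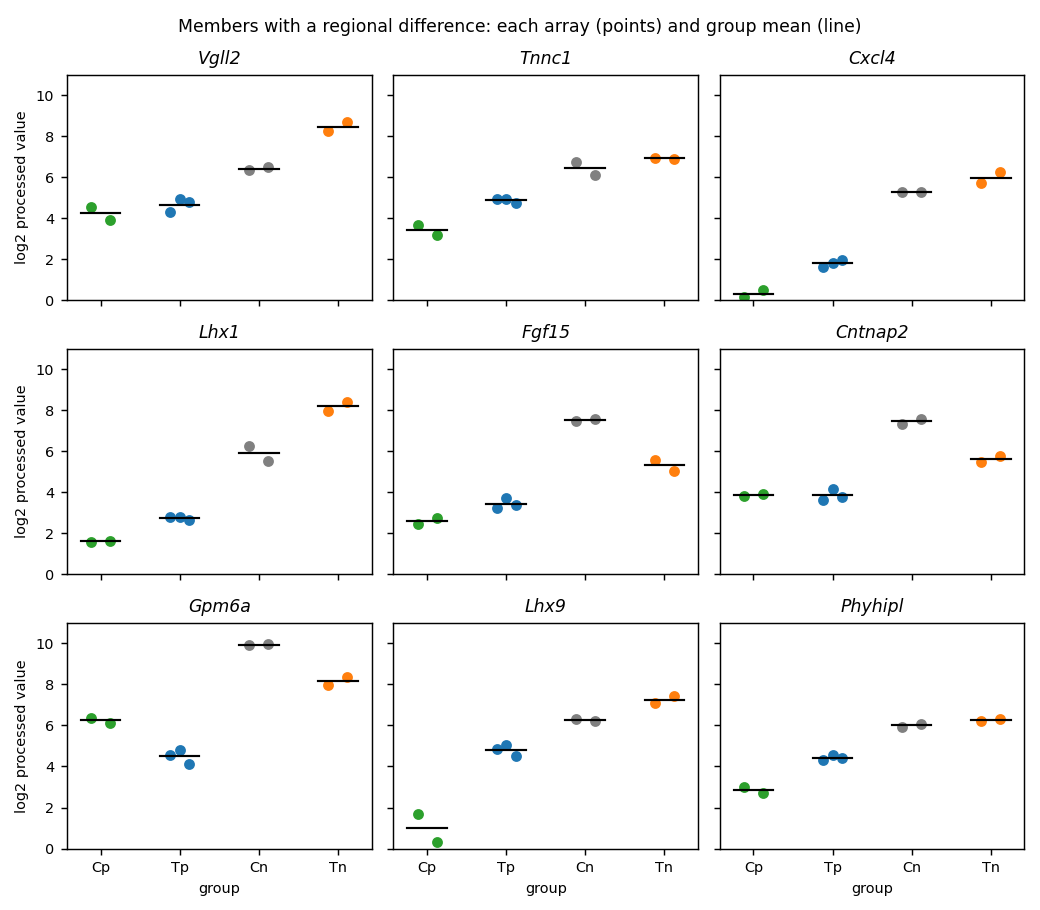
Log2 processed value of 9 members on each array (points) with the group mean (line), for Cp, Tp, Cn and Tn. Fgf15, Cntnap2 and Gpm6a are higher in Cn than in Tn, Lhx1 and Vgll2 are lower, and Lhx9 is lowest in Cp, at 1.67 and 0.33.

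As lists, the myeloid and muscle members had lower means in Cn than in Tn throughout, while few passed the test. All 15 myeloid members lay below 0, with a median of -0.69 and a range of -1.48 to -0.37, and their Cn and Tn arrays did not overlap in any of the 15 cases. The share of all probes with lower and non-overlapping Cn arrays was 30.3%. The largest difference was that of Cpa3 (5.41 and 6.13 in Cn and 7.20 and 7.32 in Tn), at -1.48 ± 0.47 SE with an adjusted p of 0.208. None of the 15 passed, against 10 at an unadjusted p under 0.05 (10.3% of all probes), and the smallest adjusted p was 0.148, for Ccl4.

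All 14 muscle members likewise lay below 0, with a median of -0.75 and a range of -2.06 to -0.29, and 11 of 14 did not overlap. Vgll2 passed, 13 did not, and 8 had an unadjusted p under 0.05, beside the same 10.3% of all probes. Both muscle genes among the other members, 1110028A07Rik and 1110002H13Rik, lay at -1.02 and -1.07, with adjusted p values of 0.276 and 0.147. The median of all probes tested was -0.16, with 68.6% below 0, and quantile normalization moved it to 0.00. Under that scaling all 14 muscle and all 15 myeloid members stayed below 0, with medians of -0.60 and -0.56. With the ring as background 9 of 14 and 11 of 15 were below 0, at medians of -0.03 and -0.29. Over all probes 12390 of 21952 were then below 0, at a median of -0.02, so the muscle median was close to that of all probes.

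The erythroid members showed no common direction between Cn and Tn. Of the 10 probes, 5 lay above and 5 below 0, with a median of 0.00 and a range of -0.35 to 0.34, none passed, none had an unadjusted p under 0.05, and all 10 overlapped. The SE of these differences was 0.27 to 0.46, and differences well above their SE went uncalled with this number of arrays. Between Cn and Tn, Pak3 (1.13 ± 0.28 SE, adjusted p = 0.0941) and Tnnt2 (-1.12 ± 0.25 SE, adjusted p = 0.0643) did not pass in limma. Among the 16 other members 9 lay above and 7 below 0, with a median of 0.08, and none passed, against 3 at an unadjusted p under 0.05 (10.3% of all probes).

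**Figure D4:**
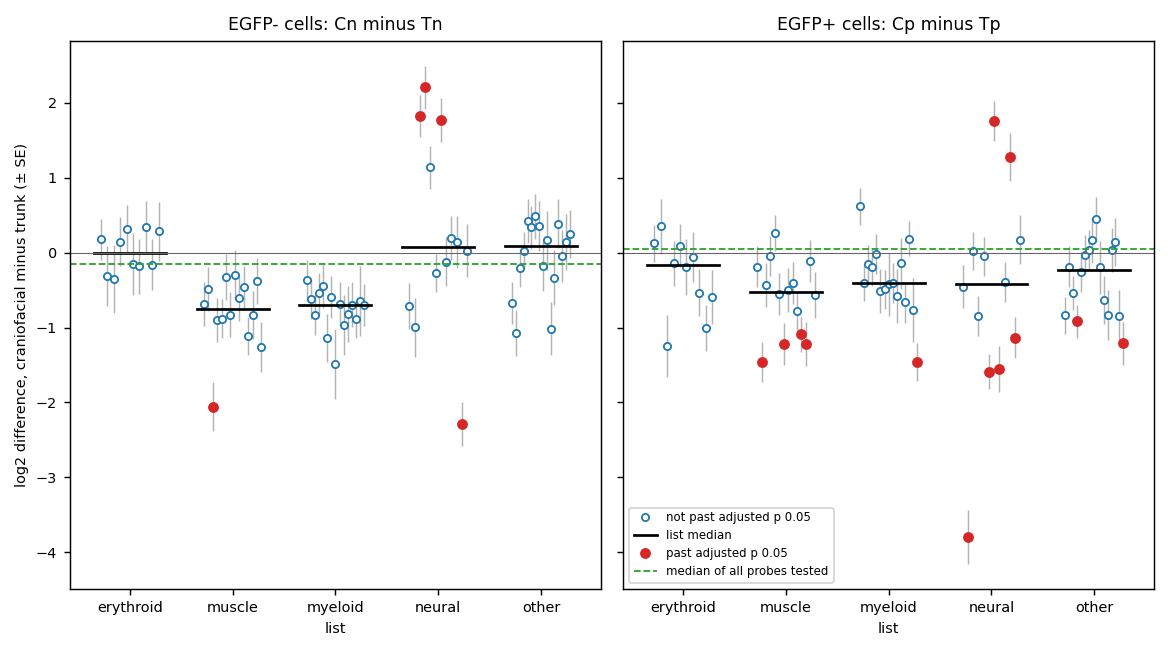
Log2 difference between craniofacial and trunk cells for each member, with its SE, in EGFP- cells (left) and EGFP+ cells (right), by list. Filled points passed an adjusted p of 0.05, black lines are list medians and the dashed line is the median of all probes tested (-0.16 and 0.04), and in EGFP- cells all muscle and myeloid points lie below 0.

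Between the EGFP+ groups, 13 of 67 members passed, 2 higher and 11 lower in Cp, against 9.26% of all probes (4.18% higher and 5.08% lower). Without Tp replicate 3 there were also 13, of which 11 were the same, beside 1749 of all probes. On at least 1 EGFP+ array, 14 of the 67 members were at or below the blank limit. No member passed limma's test when the ring served as background (0.415% of all probes did), against 4 at an unadjusted p under 0.05 (1824 of all probes). On the main scale 19.9% of all probes had such an unadjusted p. The 13 were 4 muscle genes, 1 myeloid, 6 neural and 2 other genes.

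The neural gene Lhx9, a LIM homeodomain factor, read 6.30 and 6.23 in Cn, 7.09 and 7.44 in Tn, 1.67 and 0.33 in Cp and 4.83, 5.03 and 4.51 in Tp, and was lower in Cp than in Tp (log2 difference -3.79 ± 0.36 SE, adjusted p = 4.52e-05). Only 1 of the 2 Cp arrays was above the blank limit, so the size is uncertain. The difference was -4.46 without Cp replicate 1, -3.13 without Cp replicate 2 and -3.93 without Tp replicate 3. Phyhipl read 5.94 and 6.06 in Cn, 6.24 and 6.30 in Tn, 3.0 and 2.69 in Cp and 4.31, 4.58 and 4.40 in Tp, and was lower in Cp (log2 difference -1.59 ± 0.23 SE, 3.01-fold, adjusted p = 9.74e-04). Cacng2, which encodes stargazin, a protein that carries glutamate receptors to the synapse, read 4.83 and 5.16 in Cn, 5.03 and 5.20 in Tn, 0.83 and 1.14 in Cp and 3.07, 2.46 and 2.08 in Tp. Only Cp replicate 2 was above the blank limit in Cp, and Tp was higher (log2 difference -1.55 ± 0.30 SE, adjusted p = 0.00663, or 0.0861 without Cp replicate 1). Lhx1 was lower in Cp as well (log2 difference -1.14 ± 0.27 SE, 2.2-fold, adjusted p = 0.0216), with adjusted p values of 0.145 without Cp replicate 1, 0.12 without Cp replicate 2 and 0.0674 without Tp replicate 2.

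Gpm6a and Foxp2 were the 2 members higher in Cp. Gpm6a differed by 1.76 ± 0.27 SE (adjusted p = 0.00132), beside 1.76 in EGFP- cells. Foxp2 differed by 1.27 ± 0.32 SE (adjusted p = 0.0261). Its adjusted p was 0.0733 without Cp replicate 1, 0.22 without Cp replicate 2 and 0.0639 without Tp replicate 3. Gpm6a was thus higher in craniofacial cells of both EGFP classes. Without Tp replicate 3 its EGFP+ difference was 1.58, that of Phyhipl -1.60 and that of Tnnc1 -1.51, all past the test.

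Of the muscle genes, Tnnc1, the troponin C of slow and heart muscle, read 6.76 and 6.11 in Cn, 6.95 and 6.88 in Tn, 3.65 and 3.19 in Cp and 4.91, 4.95 and 4.76 in Tp, and was lower in Cp (log2 difference -1.45 ± 0.27 SE, 2.74-fold, adjusted p = 0.00458), with 0.0746 without Cp replicate 2. Tnnt1, the troponin T of slow muscle, read 8.75 and 8.19 in Cn, 9.06 and 9.53 in Tn, 4.79 and 4.36 in Cp and 5.82, 5.96 and 5.61 in Tp, and was lower in Cp too (log2 difference -1.22 ± 0.28 SE, 2.32-fold, adjusted p = 0.0166), with 0.173 without Cp replicate 2 and 0.0614 without Tp replicate 2. Tnnt2 and Myl1 also passed, at -1.09 ± 0.23 SE (adjusted p = 0.0106) and -1.22 ± 0.29 SE (adjusted p = 0.0204). The adjusted p of Tnnt2 was 0.0642 without Cp replicate 1 and 0.103 without Cp replicate 2, and that of Myl1 was 0.122 without Cp replicate 1, 0.13 without Cp replicate 2, 0.0697 without Tp replicate 2 and 0.066 without Tp replicate 3. Altogether 13 of 14 muscle members had a lower mean in Cp, with a median of -0.53, beside a median of 0.04 and 45.8% below 0 over all probes. Without Tp replicate 3 these medians were -0.56 and -0.04.

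Of the myeloid genes Cxcl4 passed, with Tp at least 1.61-fold above Cp (adjusted p = 0.00308), or 0.0519 without Cp replicate 1. The 15 myeloid members had a median of -0.41, with 13 below 0 (45.8% of all probes), and without Tp replicate 3 the median was again -0.41. Of the other genes, Olfr376 was lower in Cp (log2 difference -1.21 ± 0.29 SE, 2.32-fold, adjusted p = 0.0202), with 0.234 without Cp replicate 2, 0.0555 without Tp replicate 1 and 0.0656 without Tp replicate 2. BC030477 read 6.72 and 6.67 in Cn, 6.74 and 6.60 in Tn, 4.1 and 4.12 in Cp and 4.89, 5.14 and 5.05 in Tp, and was lower in Cp (log2 difference -0.92 ± 0.22 SE, 1.89-fold, adjusted p = 0.0227), with 0.144 without Cp replicate 1, 0.129 without Cp replicate 2 and 0.0774 without Tp replicate 2. The 10 erythroid probes had a median of -0.17 (-0.29 without Tp replicate 3), none passed, and 2 had an unadjusted p under 0.05.

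Several of these 13 calls depended on the fit. With the scan as a block the adjusted p was 0.0572 for Tnnt1, 0.171 for Myl1, 0.13 for Lhx1, 0.0928 for Foxp2 and 0.0652 for BC030477. With the replicate as a block, Myl1 (0.0569) and Foxp2 (0.0541) did not pass. With the blank mean as background it was 0.128 for Tnnt2, 0.425 for Myl1, 0.738 for Lhx1, 0.234 for Cacng2, 0.716 for Cxcl4 and 0.0683 for BC030477. Lhx9, Phyhipl, Tnnc1, Olfr376 and Gpm6a passed in all 3 of these fits.

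Whether the regional difference itself differed between EGFP- and EGFP+ cells was tested as the interaction. It passed for 4 of 67 members, against 6.44% of all probes, all 4 neural and all with a craniofacial minus trunk difference that was more positive in EGFP- than in EGFP+ cells (3.19% of all probes, with 3.25% in the opposite direction). Without Tp replicate 3 there were also 4, of which 3 were the same, and Phyhipl was not among them. The interaction was 3.05 ± 0.39 SE, adjusted p = 9.94e-04 for Fgf15, which was higher in Cn than in Tn and had a Cp minus Tp difference of -0.85 (adjusted p = 0.0733). For Cntnap2 it was 1.80 ± 0.38 SE, adjusted p = 0.015, and the EGFP+ difference was 0.02 (adjusted p = 0.981). The adjusted p of the interaction of Cntnap2 was 0.0667 without Cp replicate 1, 0.0519 without Cp replicate 2, 0.0664 without Cn replicate 2 and 0.0634 without Tn replicate 1.

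The interaction was 2.80 ± 0.53 SE, adjusted p = 0.0088 for Lhx9 and 1.32 ± 0.34 SE, adjusted p = 0.0433 for Phyhipl, in both of which the regional difference was larger in EGFP+ cells. Lhx9 did not pass with the blank mean as background (0.07, adjusted p = 0.864) or with 16 added before log2 (0.40, adjusted p = 0.356). For Phyhipl the adjusted p was above 0.05 in 8 of the 9 fits that each left out 1 array, up to 0.159. Vgll2 had an interaction of -1.63 ± 0.44 SE, adjusted p = 0.0514, in the opposite direction. The median interaction of all probes was -0.20 and moved to -0.04 with quantile normalization, under which 6 members passed, including the same 4. When the ring served as background no member passed the interaction test (0.196% of all probes did), against 15 at an unadjusted p under 0.05. The adjusted p of Fgf15 was then 0.0651. For the 6 members under quantile normalization and these 15 with the ring, no count over all probes is given here to set beside them. On the main scale 15 of 67 members had an unadjusted interaction p under 0.05, beside 17.4% of all probes.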

How the data were processed

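RNA of sorted cells from E12.5 embryos was hybridised by the authors to 9 one-colour 3D-Gene arrays (Cy5). For each array the authors deposited scanner readings (spot intensity and ring intensity) and a processed intensity table. By comparison of both, a processed value is the spot less the blank mean, multiplied by a constant of that array. Cells left empty for spots below the blanks took the lowest value of their array before log2. Labels and methods name different RNA kits. For the genome build behind the probes, none is given in the sources used here. The arrays are described as biological duplicates, but separate litters are not stated, so p-values cover only the spread among these arrays, which may be technical.

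A probe was kept where 2 or more of the 9 arrays exceeded the blank limit (mean plus 2 SD of the blank spots, on scanner readings), which left 21965 of 23473 probes and all 67 members. A single fit in limma 3.58.1 (R 4.3.3) held the 4 groups, and left 5 residual degrees of freedom. P-values were adjusted by Benjamini-Hochberg over all probes kept. The code was tested on simulated data. Scans are numbered by the day in the scanner readings, and scanner gain could differ within a day (36 or 37 in scan 1). Scan 1 held replicate 1 of each group, and scan 2 held replicate 2 of Cp and Cn. Scan 3 held replicate 2 of Tp and Tn, and scan 4 held Tp replicate 3. Outside scan 1, region and scan therefore cannot be told apart. Alternatives were ring or blank background (normexp, offset 50, quantile), quantile scaling, 16 added, empty cells left missing, 8 arrays, other filters, scan or replicate as a block, and leaving out each array. Ring intensity followed the spot (r of logs 0.91 to 0.98), so it is an alternative.

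Names come from the study's list of 347 probes, of which 306 are named. RefSeq symbols matched 64 of 65 members and promoters (GRCm38.p6) 50. Every member is named except 1 that is not reported here, and array values are given for the 4 members with the largest gap per list and for up to 4 per list and comparison that passed without overlap. Members and lists were chosen with earlier results of these data known.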

Additional observations from a re-analysis of the deposited data

Results flagged for a closer look

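For 4 neural members the regional difference in EGFP- cells differed from that in EGFP+ cells by limma's test of the interaction, which is what drew attention to them. The share, 4 of 67 (5.97%), was close to that of all probes (6.44%). The values of (Cn minus Tn) minus (Cp minus Tp) were 3.05 for Fgf15, 2.80 for Lhx9, 1.80 for Cntnap2 and 1.32 for Phyhipl, with adjusted p values of 9.94e-04, 0.0088, 0.015 and 0.0433. Within scan 1, which held replicate 1 of every group, the same differences of single arrays were 2.67, 2.38, 1.65 and 1.02. With the blank mean as background or with 16 added before log2, Lhx9 (adjusted p = 0.864 and 0.356) and Phyhipl (0.107 and 0.0574) did not pass. No group held 4 or more arrays, so no group was examined for a sample far from the others.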

How the results depend on the processing

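The 67 members rest on the scale of the deposited processed values. With the ring around each spot as background 10 probes kept a gap of 1 or more, with the blank mean as background (normexp, offset 50) 26, with 16 added before log2 42, and with a gap of at least 2 on the same scale 41, all of them among the 67. The median EGFP- minus EGFP+ difference of the 67 members, 3.36, became 0.73, 1.38 and 1.97 in the first 3 of these settings. Leaving out 1 array at a time gave 67 to 70 members and a median difference of 3.23 to 3.45. Without an array a gap can only stay or widen, so this count could not fall below 67. Likewise, a gap of at least 2 on the same scale could only pick from the 67.

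The counts of members past the test were 5 for Cn against Tn, 13 for Cp against Tp and 4 for the interaction. They were 1, 0 and 0 with the ring as background, 12, 8 and 11 with the blank mean, and 13, 6 and 9 with 16 added. With the scan as a block they were 2, 9 and 10. With the ring and the scan block together, added after seeing the data, they were 0, 0 and 0, against 16, 2 and 11 at an unadjusted p under 0.05. In that last setting 0 of all probes passed for Cn against Tn, and 2382 had an unadjusted p under 0.05. Over all probes, 300, 2034 and 1414 became 43, 91 and 43 with the ring. For Cn against Tn and Cp against Tp they became 340 and 2228 with the blank mean and 285 and 1893 with 16 added. With the scan block these counts over all probes were 253 and 2023. Leave-one-out counts were 3 to 6, 5 to 13 and 2 to 4. With the replicate block 7, 15 and 6 members passed, beside 421 of all probes for Cn against Tn. Myl1 and Foxp2 were lost for Cp against Tp (11 of 13 main calls kept). No main call of Cn against Tn or the interaction was lost. For the interaction, counts over all probes are given here for the main fit and the ring only. For Cp against Tp with the replicate block none is given. Member counts with no count over all probes beside them cannot be read as particular to the members. The replicate numbers were not shown to pair the samples: the correlations of deviations between groups were 0.08 to 0.42, over 2 shared numbers only.

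Among the members that passed a test, the differences that changed sign were those of Lhx1 (0.0083) and BC030477 (0.021) for Cp against Tp and of Lhx9 (-0.044) and Phyhipl (-0.60) for the interaction with the ring, and of Tnnt2 (0.12), Tnnt1 (0.20) and Lhx1 (0.28) for Cp against Tp and of Lhx9 (-0.092) and Phyhipl (-0.48) for the interaction with the ring and the scan block. The cause was not tested. Groups of 2 or 3 arrays limit all regional comparisons, and signals close to the blanks in EGFP+ cells limit those that include Cp and Tp.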
